A study of Mus musculus with 12 samples.

Results

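The collagens are the family of triple-helical proteins that give the extracellular matrix its framework. Their alpha chain genes were taken from the gene counts as all symbols made of Col, a type number, the letter a and a chain number, which gave 44 genes of 27 collagen types among the 43269 named genes. The cells were MC38CEA, a mouse colon adenocarcinoma line that carries carcinoembryonic antigen. They had received Cas9 mRNA by electroporation and then guide RNAs against *Adam17*, which encodes a protease that sheds membrane proteins (*Adam17*-KD), or a guide RNA against EGFP (control cells). Both kinds of cells were left unstimulated or were given human IL1β and mouse IFNγ, each at 10 ng/ml, for 6 h, and each of the 4 groups had 3 biological replicates. All 12 libraries thus came from cells that had been electroporated with Cas9 mRNA and a guide RNA, and the labels name no clone. Whether the replicates were separate edits is not stated, so the p-values cover the spread between these samples only. The libraries held between 13.2 M and 25.4 M counts.

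Each collagen chain carries long runs of the repeat Gly-X-Y, in which X and Y are often proline and hydroxyproline, and chains wind into a helix of matching partners inside the endoplasmic reticulum. Fibrillar collagens (types I, II, III, V, XI, XXIV and XXVII) build or seed fibrils. Type IV forms the sheet-like network of basement membranes, type VI forms beaded filaments around cells, and type VIII forms short-chain networks. The fibril-associated collagens with interrupted helices (FACITs, such as types IX, XII and XVI) sit on fibril surfaces, and type XVIII is a basement membrane collagen whose C-terminal fragment is endostatin. Fibroblasts make most of the interstitial collagen of a tumour, and epithelial cells make mainly basement membrane chains.

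The line did not show the RNA pattern of an epithelium. None of 13 epithelial marker genes had enough counts to be tested, and their summed level was 0.209 to 0.932 CPM over all 12 libraries, where CPM are counts per M library counts after TMM scaling. The defining markers *Epcam* and *Cdh1* were at most 0.0594 and 0.178 CPM, and *Epcam* was at 0 in 8 of the libraries. In contrast, 9 of 12 fibroblast and mesenchymal markers were tested, with a summed level of 2700 to 4100 CPM, most of it *Vim*, and with the receptors *Pdgfra* at 7.43 to 32.5 CPM and *Pdgfrb* at 13.02 to 36.7 CPM. Of 7 leukocyte markers 3 were tested, with a summed level of 3.2 to 7.21 CPM, which was above the epithelial sum and far below the mesenchymal sum. Within that list *Ptprc* was at most 0.129 CPM. The endothelial markers *Pecam1* and *Cdh5* were at most 0.303 and 0.728 CPM. In RNA of whole cultures, fewer cells of a type and less RNA per cell cannot be told apart. The targeted gene *Adam17* was lower in all 6 *Adam17*-KD libraries (49.7 to 62.4 CPM) than in any of the 6 control libraries (77.0 to 111 CPM), with an averaged log2 difference of -0.78 ± 0.08 (adjusted p = 0.00103). Libraries also differed within groups, and replicate 2 of stimulated control cells stood furthest from the rest on the component with the next most variance (score -52.0, other libraries -26.6 to 33.0).

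Of the 44 chains, 24 had enough counts to be tested, and the other 20 were too low to measure. The 20 chains reached at most 9 counts in any library, where 3 counts correspond to 0.114 to 0.233 CPM, and together they made up 0.0619% of all collagen counts. They were *Col2a1*, *Col4a3*, *Col4a4*, *Col4a6*, *Col5a2*, *Col6a5*, *Col6a6*, *Col8a2*, *Col9a1*, *Col9a2*, *Col10a1*, *Col13a1*, *Col14a1*, *Col15a1*, *Col19a1*, *Col20a1*, *Col22a1*, *Col23a1*, *Col25a1* and *Col28a1*. They include the cartilage chains *Col2a1* and *Col10a1*, the type XV chain *Col15a1*, and the membrane collagens *Col13a1*, *Col23a1* and *Col25a1*. The highest single values were 9 counts of *Col5a2*, 8 of *Col22a1* and 7 of *Col25a1*, and *Col13a1* had 1 count in the whole experiment. No statement on a difference between groups can be made for these chains at this depth. A further 4 chains, *Col5a3*, *Col6a4*, *Col17a1* and *Col24a1*, passed the filter with a mean of 1 CPM or less.

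The collagen RNA that was present came from few genes. The 10 chains over 100 CPM on average (*Col1a2*, *Col3a1*, *Col4a1*, *Col4a2*, *Col5a1*, *Col6a1*, *Col6a2*, *Col6a3*, *Col8a1* and *Col16a1*) gave 95.5% of all collagen counts. The next 4 (*Col4a5*, *Col11a1*, *Col18a1* and *Col27a1*, at 10 to 100 CPM) gave 3.74%, and 6 chains at 1 to 10 CPM gave 0.624%. By type, the 3 abundant type VI chains led. Type VI genes held 36.4 to 40.2% of the collagen CPM in unstimulated control cells, and the type IV genes held 17.5 to 21.5%.

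Levels were set side by side only per length of exon, taken as the union of the annotated exons. In unstimulated control cells *Col6a1* was highest at 69.5 CPM per kb, apart from all others. The next, *Col3a1*, *Col6a3*, *Col5a1* and *Col4a1*, stood at 33.0, 30.5, 30.2 and 29.7 CPM per kb, and neighbours in this order overlapped between libraries. *Col4a2* (23.7), *Col6a2* (23.01) and *Col16a1* (18.96 CPM per kb) followed, then *Col8a1* (13.3), *Col1a2* (11.04) and *Col4a5* (7.25 CPM per kb). Then came a drop to *Col18a1* at 1.04 CPM per kb, and the remaining 12 tested chains lay between 0.0160 and 0.760 CPM per kb. With coding length in place of exon length *Col6a1* and *Col3a1* stayed in the top places, while *Col6a2* moved from place 7 to 3, *Col8a1* from 9 to 4 and *Col6a3* from 3 to 7, so the middle of the order depends on the gene model.

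**Figure D1:**
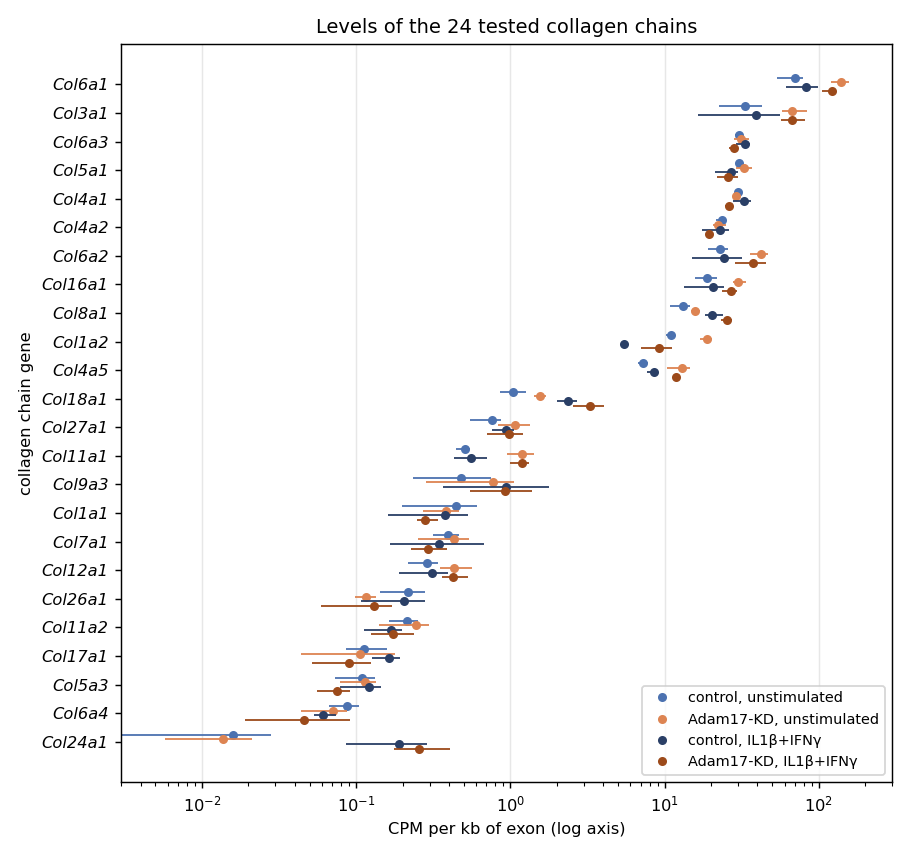
CPM per kb of exon (log axis) of the 24 tested collagen chains in the 4 groups; points are means of 3 libraries and lines run from the lowest to the highest library, with a library at 0 drawn to the left edge. *Col6a1* is highest in each group, 11 chains lie above 5 CPM per kb in each group, and *Col24a1* lies far lower without cytokines (0.0160 CPM per kb in control cells) than with them (0.188 CPM per kb).

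Several types were represented by an incomplete set of chains. Type I collagen joins a pair of α1(I) chains with an α2(I) chain, yet *Col1a1*, which encodes α1(I), was at 1.06 to 3.98 CPM while *Col1a2*, which encodes α2(I), was at 66.6 to 252 CPM. Per kb of exon *Col1a2* exceeded *Col1a1* by 10.6 to 71.1 times in the 12 libraries, and per kb of coding sequence by 21.2 to 143 times. Type V usually contains α1(V) and α2(V). *Col5a1* had 56609 counts in all, *Col5a2* had 52 and *Col5a3* had 161, on genes of 8490, 9591 and 6809 bases of exon. In type IV, the α5 chain works with the α3 and α4 chains or with the α6 chain. *Col4a5* had 15320 counts in all against 27, 28 and 22 of *Col4a3*, *Col4a4* and *Col4a6*. *Col4a6* lies head to head with *Col4a5*, with 1309 bases between their starts. *Col8a1* had 32119 counts and *Col8a2* had 12. *Col9a3* had 631 counts while *Col9a1* and *Col9a2* had 4 and 12, but *Col9a3* overlaps *Tcfl5* on the other strand, and whether the counting used strand is not stated, so reads of these neighbours cannot be told apart.

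Total collagen RNA was on average higher in *Adam17*-KD cells in both conditions, and the sum was not tested. It summed to 2281 CPM in unstimulated control cells (lowest 2113, highest 2418) and 3344 CPM in unstimulated *Adam17*-KD cells (lowest 2959, highest 3799). With cytokines it summed to 2448 CPM in control cells (lowest 1823, highest 2790) and 3022 CPM in *Adam17*-KD cells (lowest 2741, highest 3323). The groups did not overlap without cytokines and overlapped slightly with them. The lowest stimulated control value was that of replicate 2, the library that stood furthest from the rest above, and it lowers that mean. The makeup of the sum differed too. *Col3a1* and *Col6a1* held 14.1% and 13.3% of it in unstimulated control cells and 19.7% and 18.1% in unstimulated *Adam17*-KD cells, whereas *Col6a3* held 16.1% and 11.2% and *Col5a1* held 11.3% and 8.25%. For all type IV genes together, the share was 18.8% against 13.5%.

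The first comparison asked which chains differed between unstimulated *Adam17*-KD and control cells. In edgeR's quasi-likelihood test, with Benjamini-Hochberg adjustment over all 14673 genes tested, 4 chains were higher and 0 were lower: *Col1a2*, *Col4a5*, *Col6a1* and *Col11a1*. Among all genes tested, 0.429% were called higher and 0.0409% lower. At an unadjusted p under 0.05 there were 8 chains higher and 0 lower, against 4.42% and 3.14% of all genes. DESeq2 called 5 higher and 0 lower, against 1.45% and 0.176% of the genes for which it gave an adjusted p. The median log2 fold change was 0.22 over the 24 chains and -0.01 over all genes, and 17 of 24 chains (70.8%) had a positive value against 47.6% of all genes. Averaged over both conditions, the 4 chains and *Col6a2* were higher and 0 were lower, against 1.06% and 0.184% of all genes. There, 10 chains were higher and 2 lower at an unadjusted p under 0.05, against 6.67% and 4.16% of all genes, and DESeq2 called 8 higher and 0 lower, against 2.28% and 0.526%.

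*Col1a2* (chromosome 6, 4504814 to 4541544, plus strand, mm10), which overlaps *Gm43921* on the same strand, encodes the α2 chain of the main fibrillar collagen. It stood at 142, 142 and 128 CPM in replicates 1, 2 and 3 of unstimulated control cells and at 252, 239 and 210 CPM in unstimulated *Adam17*-KD cells. With cytokines the values were 70.2, 67.1 and 66.6 CPM in control and 115, 139 and 87.4 CPM in *Adam17*-KD cells. *Adam17*-KD libraries lay above control libraries in both conditions, with no overlap. In unstimulated cells the log2 fold change came to 0.77 ± 0.15 (SE, adjusted p = 0.0342), and it came to 0.74 ± 0.15 in stimulated cells (adjusted p = 0.135), and 0.76 ± 0.10 averaged (adjusted p = 0.00341). Its partner *Col1a1* (chromosome 11, 94936224 to 94953042, plus strand) gave 3.98, 1.30 and 3.43 CPM in unstimulated control and 3.04, 1.78 and 2.67 CPM in unstimulated *Adam17*-KD cells. With cytokines it stood at 3.51, 1.06 and 2.81 CPM in control and 2.21, 1.63 and 1.63 CPM in *Adam17*-KD cells. Replicate 2 was the lowest of both control groups, and the averaged log2 difference of -0.34 ± 0.31 (adjusted p = 0.790) was within the spread, with a 95% interval from -1.01 to 0.34.

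Among the 6 type IV chains only *Col4a5* was called. This gene (chromosome X, 141475385 to 141689234, plus strand) overlaps *Gm15268* on the same strand and *Gm15282* on the other strand. It encodes the α5(IV) chain, which is mutated in X-linked Alport syndrome in humans. It was at 48.6, 52.4 and 45.2 CPM in unstimulated control and 98.3, 94.7 and 70.1 CPM in unstimulated *Adam17*-KD cells, and with cytokines at 60.7, 52.0 and 59.9 CPM and 79.0, 83.6 and 76.2 CPM. Every *Adam17*-KD library was above every control library. The log2 rise over control cells was 0.85 ± 0.14 in unstimulated cells (adjusted p = 0.0136), 0.47 ± 0.14 in stimulated cells (adjusted p = 0.473) and 0.66 ± 0.10 averaged (adjusted p = 0.00462). *Col4a1* and *Col4a2* encode the chains of the common α1(IV)α2(IV) network and lie head to head on chromosome 8 (11198423 to 11312826, minus strand, and 11312805 to 11449287, plus strand), so that their spans overlap by 22 bases. In unstimulated cells *Col4a1* was at 214, 235 and 216 CPM in control and 232, 208 and 206 CPM in *Adam17*-KD cells, and *Col4a2* at 143, 166 and 162 CPM and 164, 137 and 142 CPM. With cytokines *Col4a1* was at 257, 208 and 272 CPM in control and 190, 208 and 184 CPM in *Adam17*-KD cells, and *Col4a2* at 166, 116 and 173 CPM and 136, 125 and 124 CPM. With cytokines every *Adam17*-KD library of *Col4a1* was narrowly below the control libraries (-0.34 ± 0.12, adjusted p = 0.747). Their averaged log2 differences were -0.19 ± 0.08 (adjusted p = 0.423, 95% interval -0.37 to -0.01) and -0.16 ± 0.10 (adjusted p = 0.647, -0.38 to 0.06). The ratio of *Col4a5* to *Col4a1* per kb of exon was 0.233 to 0.253 in unstimulated control and 0.378 to 0.507 in unstimulated *Adam17*-KD libraries, and 0.245 to 0.278 and 0.447 to 0.462 with cytokines.

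Type VI collagen is assembled from α1(VI), α2(VI) and another chain, usually α3(VI), and its chains differed from one another. *Col6a1* (chromosome 10, 76708792 to 76726168, minus strand) was at 343, 236 and 334 CPM in unstimulated control and 684, 611 and 526 CPM in unstimulated *Adam17*-KD cells. With cytokines it was at 434, 267 and 376 CPM in control and 560, 570 and 459 CPM in *Adam17*-KD cells. The groups did not overlap in either condition, and the log2 values were 0.99 ± 0.19 in unstimulated cells (adjusted p = 0.0365), 0.56 ± 0.19 in stimulated cells (adjusted p = 0.686) and 0.78 ± 0.14 averaged (adjusted p = 0.0128). *Col6a2*, 85161 bases away on the same strand (76595762 to 76623630), was at 215, 159 and 201 CPM and 392, 362 and 299 CPM in unstimulated control and *Adam17*-KD cells, and at 265, 126 and 212 CPM and 381, 311 and 239 CPM with them. Its log2 fold change was 0.87 ± 0.24 in unstimulated cells (adjusted p = 0.208) and 0.63 ± 0.24 in stimulated cells (adjusted p = 0.861), where the groups overlapped. Averaged, it was 0.75 ± 0.17, with an adjusted p of 0.0498 that just passed the threshold. The call of *Col6a2* was lost with a filter at a mean of 50 counts (adjusted p = 0.0558) and without any 1 of 8 libraries (adjusted p = 0.0946 to 0.135). These were the 3 unstimulated control libraries, replicate 3 of stimulated control cells, and replicates 1 and 2 of both *Adam17*-KD groups.

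*Col6a3* (chromosome 1, 90765923 to 90843971, minus strand), the long chain whose C-terminal fragment is endotrophin, did not follow. It was at 369, 380 and 344 CPM in unstimulated control and 420, 368 and 335 CPM in unstimulated *Adam17*-KD cells, and with cytokines at 407, 348 and 430 CPM and 353, 345 and 311 CPM. The groups overlapped in both conditions, and the averaged log2 difference was -0.10 ± 0.09 (adjusted p = 0.780, 95% interval -0.28 to 0.09). The ratio of *Col6a1* to *Col6a3* per kb of exon was 1.70 to 2.65 in unstimulated control and 4.29 to 4.53 in unstimulated *Adam17*-KD libraries, and with cytokines 2.10 to 2.91 and 4.03 to 4.504. That of *Col6a1* to *Col6a2* was 2.82 to 3.17 and 3.20 to 3.34 without cytokines, and 3.12 to 4.03 and 2.80 to 3.66 with them, where the groups overlapped. Both chains of a ratio come from the same library, and these ratios are given without a test. *Col6a4*, a minor alternative to α3(VI), had 3 to 18 counts per library (0.162 to 0.886 CPM) and an averaged log2 difference of -0.39 ± 0.36 (adjusted p = 0.787).

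*Col11a1* (chromosome 3, 114030540 to 114220718, plus strand) encodes α1(XI), a chain of thin fibrils in cartilage that in human tumours is known from activated fibroblasts. It was at 5.69, 6.93 and 6.70 CPM in unstimulated control and 12.1, 18.1 and 15.2 CPM in unstimulated *Adam17*-KD cells, and with cytokines at 6.66, 5.46 and 8.97 CPM and 12.7, 15.6 and 16.9 CPM. Again no *Adam17*-KD library reached down to a control library. The log2 fold change of 1.23 ± 0.22 without cytokines (adjusted p = 0.0197) was the largest among the chains, and the others were 1.09 ± 0.22 with cytokines (adjusted p = 0.135) and 1.16 ± 0.15 averaged (adjusted p = 0.00326). Its partner *Col11a2* (chromosome 17, 34039437 to 34066685, plus strand) was at 1.59, 1.72 and 1.116 CPM and 2.02, 2.04 and 0.961 CPM in unstimulated cells, and at 1.31, 1.37 and 0.776 CPM and 1.08, 1.63 and 0.854 CPM in stimulated cells, in control and *Adam17*-KD cells in turn. The groups overlapped and the averaged log2 difference was 0.13 ± 0.27 (adjusted p = 0.911).

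**Figure D2:**
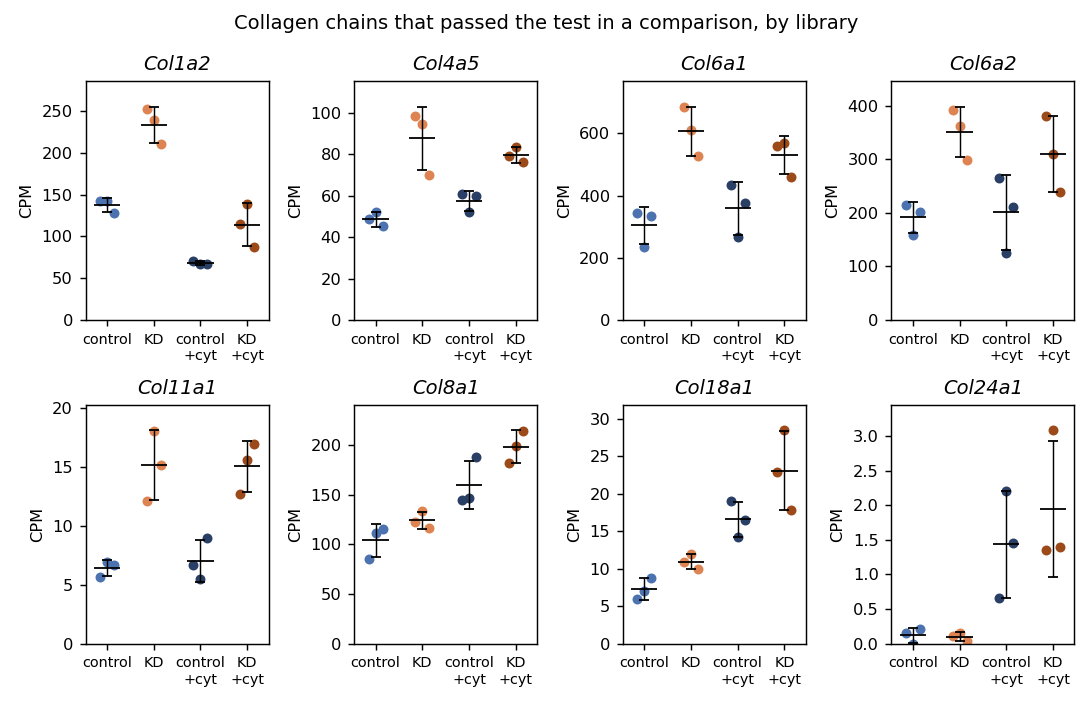
CPM (linear axis from 0) of the 8 chains called in a comparison, in each of the 12 libraries; replicates 1, 2 and 3 run from left to right within a group, with the mean as a line and the SD as an error bar, and "+cyt" marks IL1β plus IFNγ. *Col1a2*, *Col4a5*, *Col6a1* and *Col11a1* are higher in each *Adam17*-KD group than in its control group (*Col11a1* at 5.46 to 8.97 CPM in all control and 12.1 to 18.1 CPM in all *Adam17*-KD libraries), and *Col8a1*, *Col18a1* and *Col24a1* are higher with cytokines.

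The averaged calls of *Col1a2*, *Col4a5*, *Col6a1* and *Col11a1* held whichever library was left out, with highest adjusted p of 0.0138, 0.0194, 0.0471 and 0.0122. The calls in unstimulated cells alone were less steady. None of the 4 was called without unstimulated control replicate 1, 2 or 3 or without unstimulated *Adam17*-KD replicate 2, and 1 was called without unstimulated *Adam17*-KD replicate 1. There were 2 without replicate 3 of stimulated control or replicate 1 of stimulated *Adam17*-KD cells. Without stimulated control replicate 2 there were 7, with *Col3a1*, *Col6a2* and *Col16a1* added. These counts are not set beside the share of all genes called without the same library. They describe how steady the calls were and not a trait of collagen genes.

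With cytokines 0 chains were called higher and 0 lower by edgeR, against 0.0273% and 0.00682% of all genes. At an unadjusted p under 0.05 there were 8 chains higher and 1 lower (*Col4a1*), against 3.26% and 1.35% of all genes. DESeq2 called 2 higher (*Col1a2* and *Col11a1*) and 0 lower, against 0.418% and 0.0742%. Without a filter on low counts edgeR called 4, and the calls among all genes in that setting are given at the end. That count is not read as a trait of collagen genes. *Col1a2* also passed without stimulated *Adam17*-KD replicate 3 (adjusted p = 0.0228). The median log2 fold change of the 24 chains was 0.07, against 0.01 over all genes.

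Other chains were not called by edgeR between *Adam17*-KD and control cells. Among them was *Col3a1*, which had wide scatter and whose gene span overlaps *Gm47302* on the same strand. *Col3a1* (chromosome 1, 45311538 to 45349706, plus strand), the homotrimeric fibrillar collagen of compliant tissues, was at 328, 222 and 422 CPM in unstimulated control and 825, 597 and 564 CPM in unstimulated *Adam17*-KD cells. With cytokines it was at 446, 160 and 550 CPM in control and 800.5, 556 and 611 CPM in *Adam17*-KD cells. The groups did not overlap, but the control groups spread widely, and the log2 value was 1.03 ± 0.35 in unstimulated cells (adjusted p = 0.403) and 0.90 ± 0.25 averaged (adjusted p = 0.126). The averaged call appeared without stimulated control replicate 2 (0.71, adjusted p = 0.0450) and with the replicate number as a block (0.98, adjusted p = 0.0264). *Col16a1*, a FACIT chain, was at 90.7 to 164 CPM in control and 159 to 229 CPM in *Adam17*-KD libraries, with an averaged log2 fold change of 0.53 ± 0.14 (adjusted p = 0.111, or 0.0181 with the block). *Col18a1* had 0.53 ± 0.14 (adjusted p = 0.107), and DESeq2 called *Col3a1*, *Col16a1* and *Col18a1* higher in the average. Replicate 2 was the lowest control library of *Col1a1*, *Col3a1*, *Col6a1*, *Col6a2* and *Col16a1* in both conditions. Of the 24 chains, 16 were lowest in replicate 3 of unstimulated *Adam17*-KD cells, 16 in replicate 3 of stimulated *Adam17*-KD cells and 15 in replicate 2 of stimulated control cells, each within its group.

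*Col5a1*, whose product seeds fibrils of type I collagen, was at 179 to 263 CPM in control and 186 to 313 CPM in *Adam17*-KD libraries, with an averaged log2 difference of 0.03 ± 0.11 (adjusted p = 0.956). *Col8a1* had 0.29 ± 0.10 (adjusted p = 0.273) and the FACIT chain *Col12a1*, at 2.88 to 8.57 CPM, had 0.52 ± 0.21 (adjusted p = 0.362). *Col26a1*, a short collagen at 0.486 to 2.29 CPM, had the lowest value of all chains (-0.76 ± 0.31, adjusted p = 0.375). Of the remaining chains, *Col27a1* was at 7.14 to 17.5 CPM, the anchoring fibril chain *Col7a1* at 1.70 to 6.90 CPM, *Col9a3* at 0.901 to 6.90 CPM, the hemidesmosome chain *Col17a1* at 0.262 to 1.16 CPM and *Col5a3* at 0.378 to 0.986 CPM. None of these 9 was called in any of the comparisons except *Col8a1* in the cytokine responses.

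**Figure D3:**
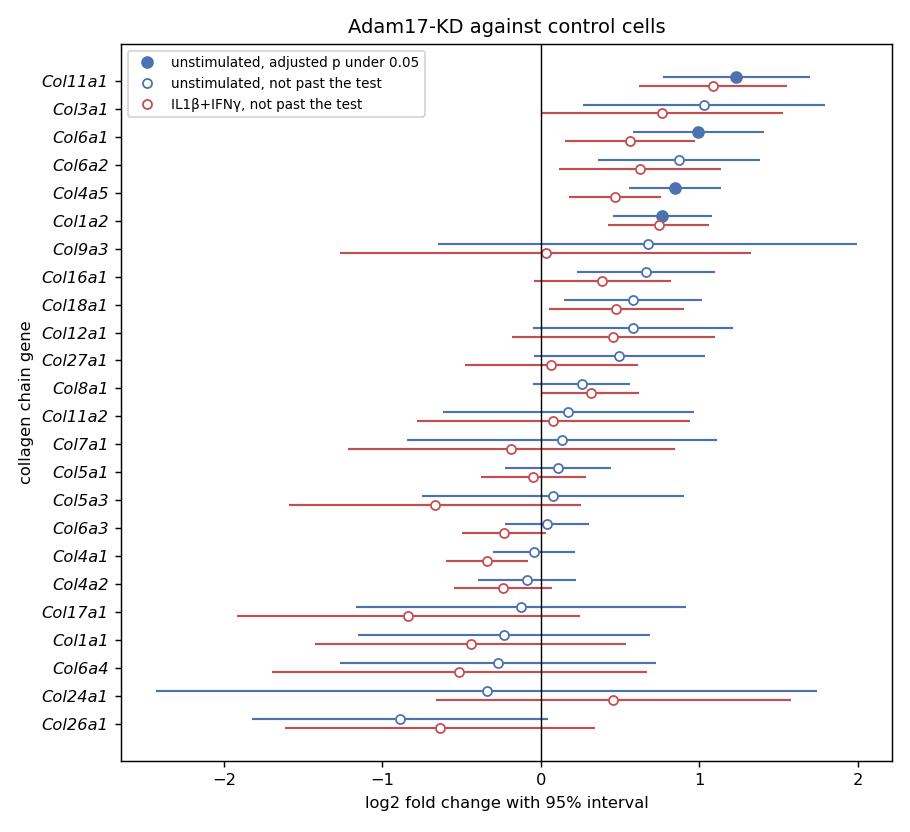
Log2 fold change of *Adam17*-KD over control cells with its 95% interval for the 24 tested chains, without cytokines (blue) and with IL1β plus IFNγ (red); filled points passed the test and the dark line marks no change. *Col11a1*, *Col6a1*, *Col4a5* and *Col1a2* are the filled points (1.23, 0.99, 0.85 and 0.77), and the intervals of *Col6a3*, *Col4a2* and *Col5a1* include 0 in both conditions.

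**Figure D4:**
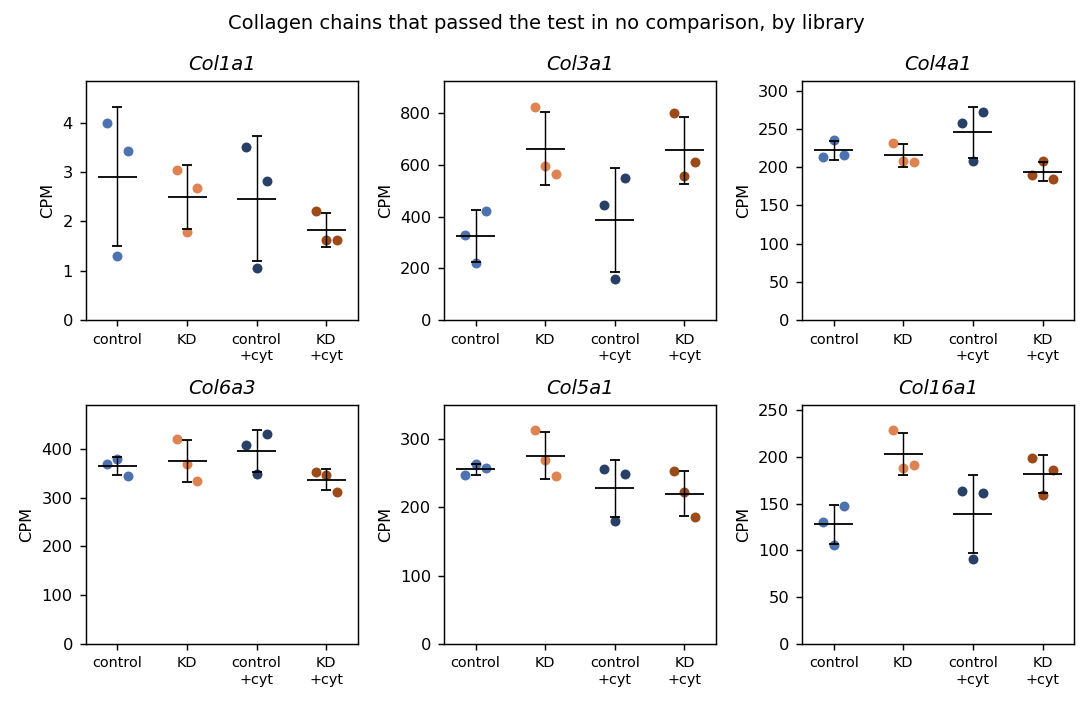
CPM (linear axis from 0) of 6 further chains in each of the 12 libraries, drawn as for the called chains. *Col3a1* and *Col16a1* vary widely among control replicates (*Col3a1* at 160 to 550 CPM with cytokines), and neither was called between *Adam17*-KD and control cells.

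The sequence before the start site is shown for the chains that were higher in *Adam17*-KD cells in every setting of the averaged test. They were picked by that call, and of them only *Col1a2* was called in a cytokine response. It is the 120 bases before the RefSeq start, read 5′ to 3′ on the strand of the gene (RefSeq on GRCm38.p6, the assembly of mm10), and capitals mark matches on either strand to the CCAAT box (letters CCAAT), the TATA box (letters TATAAA), the GC box (letters GGGCGG) or the AP-1 site (letters TGANTCA). Matches to the GC box may overlap one another, and the RefSeq start can differ from the start of the gene span given above. RefSeq had a start for 35 of the 44 chains.
Col1a2, chr6:4505498-4505617, plus strand: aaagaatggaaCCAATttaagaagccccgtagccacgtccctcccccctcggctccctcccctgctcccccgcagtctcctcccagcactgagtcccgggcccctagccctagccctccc
Col4a5, chrX:141475299-141475418, plus strand: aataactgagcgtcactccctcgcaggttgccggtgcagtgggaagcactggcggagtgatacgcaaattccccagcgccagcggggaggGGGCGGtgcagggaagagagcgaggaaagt
Col6a1, chr10:76726045-76726164, minus strand: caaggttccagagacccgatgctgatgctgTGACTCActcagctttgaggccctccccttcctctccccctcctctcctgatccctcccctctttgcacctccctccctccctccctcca
Col11a1, chr3:114030420-114030539, plus strand: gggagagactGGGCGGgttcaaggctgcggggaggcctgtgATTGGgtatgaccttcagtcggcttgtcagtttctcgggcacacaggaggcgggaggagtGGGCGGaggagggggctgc
No motif was found in all 4 windows. *Col1a2* and *Col11a1* held a CCAAT match, *Col4a5* and *Col11a1* a GC box, and *Col6a1* an AP-1 match, and none of the 4 held a TATA box. In the same 120 bases of all 32851 RefSeq promoters, the CCAAT box was found in 21.3%, the GC box in 26.5%, the AP-1 site in 3.41% and the TATA box in 6.34%. A match is only a run of letters and does not show a used site.

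The next comparison asked how the chains responded to IL1β and IFNγ. In control cells 3 chains rose (*Col8a1*, *Col18a1* and *Col24a1*) and 1 fell (*Col1a2*), against 5.75% of all genes called higher and 1.06% called lower. In *Adam17*-KD cells the test again called 3 chains higher and 1 lower, and they were the same genes, against 6.37% and 1.53% of all genes. *Col24a1* passed the filter on low counts only through stimulated libraries and so had to differ, which leaves *Col8a1* and *Col18a1* as the rises to be read against these shares. The unstimulated libraries enter both this comparison and that of *Adam17*-KD with control cells. The other 20 tested chains, among them all abundant chains of types III, IV, V and VI, were not called in either response. Median log2 fold changes of the 24 chains were 0.13 in control and -0.16 in *Adam17*-KD cells, against -0.03 and 0.00 over all genes.

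*Col1a2*, whose values in each library are given above, was lower with cytokines in every library of both kinds of cells. It fell by 1.01 on the log2 scale in control cells (SE 0.15, adjusted p = 0.000332) and by 1.04 in *Adam17*-KD cells (SE 0.15, adjusted p = 0.000268), which left 0.495 and 0.488 times the unstimulated level. The call held whichever library was left out (highest adjusted p 0.00271 and 0.00177). *Col3a1*, another abundant fibrillar chain, overlapped between unstimulated and stimulated libraries in both kinds of cells. Stimulated *Adam17*-KD cells (87.4 to 139 CPM of *Col1a2*) overlapped with unstimulated control cells (128 to 142 CPM).

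*Col8a1* (chromosome 16, 57624258 to 57754737, minus strand) encodes the α1 chain of type VIII, a network collagen made by endothelial and smooth muscle cells. It was at 85.2, 111 and 115 CPM in unstimulated and 144, 146 and 187 CPM in stimulated control cells. In *Adam17*-KD cells it was at 122, 133 and 117 CPM without and 181, 198 and 214 CPM with cytokines. The libraries did not overlap, and the log2 rise was 0.62 ± 0.14 (adjusted p = 0.0140) and 0.67 ± 0.14 (adjusted p = 0.00693). The call in control cells ended without unstimulated control replicate 1 (0.49, adjusted p = 0.07999) or stimulated control replicate 3 (0.49, adjusted p = 0.0832), and that in *Adam17*-KD cells without unstimulated *Adam17*-KD replicate 3 (0.61, adjusted p = 0.0503).

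*Col18a1* (chromosome 10, 77052178 to 77166548, minus strand) rose from 5.99, 7.09 and 8.80 CPM to 18.96, 14.2 and 16.5 CPM in control cells. In *Adam17*-KD cells it rose from 10.9, 11.9 and 9.96 CPM to 22.9, 28.4 and 17.9 CPM. The libraries were fully apart in both. The log2 rise was 1.18 ± 0.20 (adjusted p = 0.00147) and 1.08 ± 0.20 (adjusted p = 0.00265), or 2.27 and 2.11 times, and the call held whichever library was left out. The gene overlaps *Slc19a1* on the other strand, and reads of these genes cannot be told apart without strand.

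*Col24a1* (chromosome 3, 145292472 to 145552011, plus strand), a fibrillar chain known from developing bone and cornea, was near the limit of detection without cytokines. It had 4, 0 and 5 counts in unstimulated control and 11, 29 and 30 counts in stimulated control libraries. In *Adam17*-KD libraries it had 2, 3 and 1 counts without and 25, 51 and 18 counts with cytokines. The fitted log2 difference was 3.39 ± 0.69 (adjusted p = 0.00540) and 4.19 ± 0.72 (adjusted p = 0.00137). It rests on few unstimulated counts, so its size is uncertain. *D530037P16Rik* overlaps it on the same strand and *9530034A14Rik* on the other strand. With a filter at a mean of 50 counts it was not tested.

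**Figure D5:**
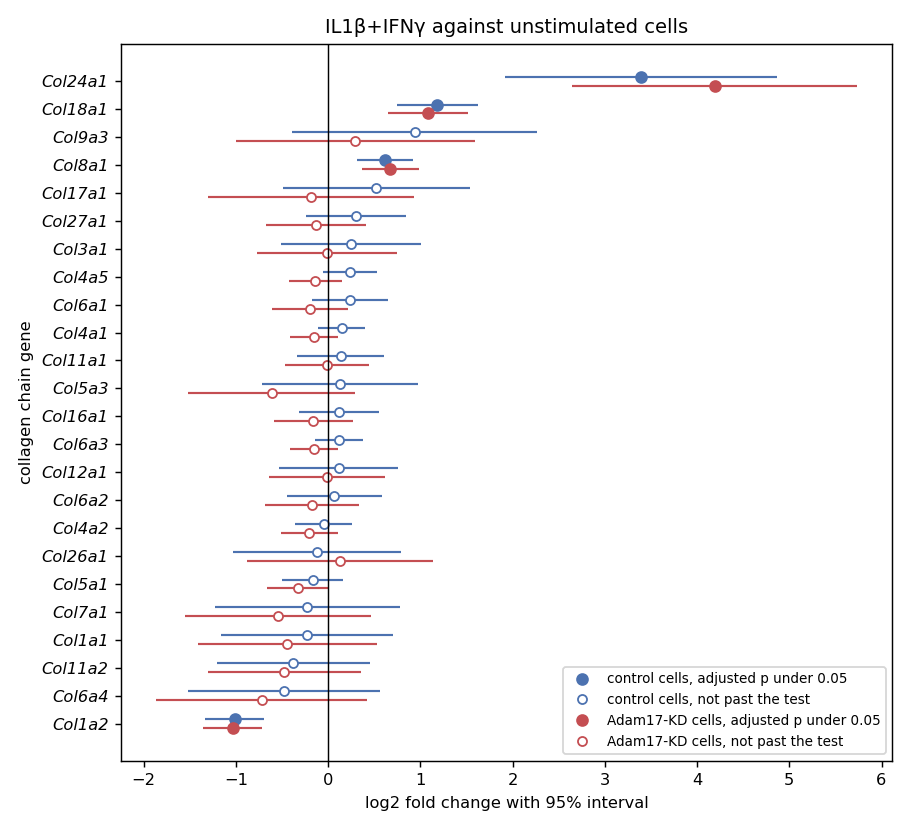
Log2 fold change of stimulated over unstimulated cells with its 95% interval for the 24 tested chains, in control (blue) and *Adam17*-KD cells (red); filled points passed the test and the dark line marks no change. *Col24a1* (3.39 and 4.19), *Col18a1* (1.18 and 1.08), *Col8a1* (0.62 and 0.67) and *Col1a2* (-1.01 and -1.04) are filled in both kinds of cells.

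The bases before the RefSeq starts of the 3 chains that rose are shown in the same way, since AP-1 is among the factors that IL1β activates. RefSeq lists more than 1 start for *Col18a1*, and the outermost is shown.
Col8a1, chr16:57754738-57754857, minus strand: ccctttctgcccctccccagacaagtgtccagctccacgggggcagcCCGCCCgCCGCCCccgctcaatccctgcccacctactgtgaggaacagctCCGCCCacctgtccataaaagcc
Col18a1, chr10:77166531-77166650, minus strand: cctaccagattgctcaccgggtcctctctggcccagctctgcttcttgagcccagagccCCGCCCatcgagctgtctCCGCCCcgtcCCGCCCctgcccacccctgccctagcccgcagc
Col24a1, chr3:145292352-145292471, plus strand: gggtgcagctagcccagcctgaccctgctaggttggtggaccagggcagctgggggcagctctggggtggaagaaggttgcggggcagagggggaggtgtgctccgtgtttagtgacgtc
*Col8a1* and the outermost *Col18a1* start held 3 GC boxes each and *Col24a1* no match to any of the 4 motifs. The inner *Col18a1* start, not shown, also had no match, and which start these cells use was not tested. The AP-1 letters were in none of the 3 windows, which says only that these letters are not in these 120 bases.

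Whether the response of a chain differed between control and *Adam17*-KD cells was tested directly. No chain was called higher or lower, as was the case for all 14673 genes (0% and 0%). At an unadjusted p under 0.05 there were 0 of the 24 chains and 222 of all genes, and DESeq2 called 0 chains. The differences (response in *Adam17*-KD minus that in control cells) ran from -0.74 in *Col5a3* to 0.80 in *Col24a1*, both low chains, and the smallest p was that of *Col4a5* (0.0681, difference -0.38). Of the 24 values 21 were negative and 3 (12.5%) were positive, against 53.1% positive among all genes. The median was -0.24 over the chains and 0.02 over all genes. The chains share libraries, so the count of signs is a description. The 3 libraries that were lowest in most chains of their groups, replicate 3 of both *Adam17*-KD groups and replicate 2 of stimulated control cells, enter all of these values. A low value in replicate 3 of stimulated *Adam17*-KD cells makes the difference more negative. Low values in the other libraries named make it more positive.

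Genes that make, bind or regulate collagen were described by lists. Of 23 genes of hydroxylation, folding and export, 21 were tested and 0 were called in a comparison of *Adam17*-KD with control cells. *Serpinh1*, the collagen chaperone, was at 807 and 813 CPM in unstimulated control and *Adam17*-KD cells. *Plod3*, a lysyl hydroxylase, was the only 1 of the 21 called in a cytokine response (0.60 ± 0.17 in *Adam17*-KD cells, adjusted p = 0.0394), and 7 of 12 left-out libraries ended that call, with adjusted p up to 0.173. Of 15 genes of propeptide cleavage and crosslinking 7 were tested and 0 called in the main test. The lysyl oxidase *Lox* was at most 0.101 CPM on average in the control groups. *Loxl3* had the smallest adjusted p (0.53 ± 0.13 averaged, adjusted p = 0.0606), followed by the propeptidase *Adamts14* (0.39 ± 0.16 with cytokines in control cells, adjusted p = 0.252). The averaged rise of *Loxl3* was called with the replicate block (adjusted p = 0.0351) and with RLE scaling (adjusted p = 0.0459). It was also called with no filter (adjusted p = 0.00176) and by DESeq2 (adjusted p = 0.00351). Of 10 collagen receptors and uptake genes 6 were tested, of 9 collagen-degrading proteases 3, and 0 of either list were called in the main test. The smallest adjusted p were those of the collagen uptake receptor *Mrc2* (-0.47 ± 0.19, adjusted p = 0.206) and the receptor kinase *Ddr2* (-0.32 ± 0.16, adjusted p = 0.340), both with cytokines in *Adam17*-KD cells. Among the proteases they were those of the gelatinase *Mmp9* (0.84 ± 0.25 with cytokines in control cells, adjusted p = 0.0653) and the membrane collagenase *Mmp14* (-0.43 ± 0.13 with cytokines in *Adam17*-KD cells, adjusted p = 0.0697). In the averaged comparison of *Adam17*-KD with control cells, DESeq2 called *Mmp9* higher (0.67, adjusted p = 0.0108). *Serpinh1* and *Lox* were named after their values were seen.

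Of 13 fibril-associated matrix proteins 8 were tested, and in the averaged comparison 4 were called higher, all of them small leucine-rich proteoglycans. *Aspn* and *Prelp*, at most 0.683 and 0.365 CPM in control libraries, passed the filter on low counts through *Adam17*-KD libraries and so had to differ, and the count is not read against the share of all genes. *Ogn* (osteoglycin) was at 35.4, 21.2 and 32.9 CPM in unstimulated control and 83.7, 79.1 and 62.0 CPM in unstimulated *Adam17*-KD cells, and with cytokines at 23.5, 21.1 and 24.5 CPM and 52.5, 51.8 and 70.3 CPM. The libraries did not overlap, and the averaged log2 fold change was 1.33 ± 0.14 (adjusted p = 0.00101). *Aspn* (2.67 ± 0.43, adjusted p = 0.00746), *Prelp* (3.08 ± 0.52, adjusted p = 0.0107) and *Omd* (1.88 ± 0.36, adjusted p = 0.0200) were lower in level, at most 4.04, 1.24 and 3.71 CPM in any library. *Prelp* had 0 counts in 2 of the 3 stimulated control libraries, so the size of its change is uncertain. *Omd* lost its call without any 1 of 5 libraries (adjusted p up to 0.0722). *Aspn*, *Omd* and *Ogn* lie next to each other on chromosome 13 (49544443 to 49567565, 49582462 to 49592822 and 49608046 to 49624501, plus strand), within the span of *Cenpp* on the other strand (49464023 to 49652785). *Dcn*, decorin, which binds type I collagen, rose with cytokines in *Adam17*-KD cells (0.85 ± 0.20, adjusted p = 0.0134), a call that ended without 1 of the *Adam17*-KD libraries (unstimulated replicate 2, adjusted p = 0.0881, or stimulated replicate 1, adjusted p = 0.0578).

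Of the 17 basement membrane partners of type IV collagen, 12 were tested and 1 was called, the laminin chain *Lama3* in the cytokine response of *Adam17*-KD cells (1.47 ± 0.41, adjusted p = 0.0429), at 0.350 to 1.82 CPM. Of the 12 libraries left out in turn, that call remained only without replicate 2 of stimulated control or replicate 1 of stimulated *Adam17*-KD cells, and the highest adjusted p was 0.177. It also ended with no filter on low counts (adjusted p = 0.0841) and narrowly with DESeq2 (adjusted p = 0.0500014). Of 19 genes of TGFβ signalling and collagen gene regulation 16 were tested. The receptor *Tgfbr2* was at 64.2, 66.4 and 61.7 CPM in unstimulated control and 112, 111 and 94.3 CPM in unstimulated *Adam17*-KD cells (0.72 ± 0.12, adjusted p = 0.0184), and it lost this call without unstimulated control replicate 1, 2 or 3 or unstimulated *Adam17*-KD replicate 1 or 2 (adjusted p up to 0.110). *Smad3*, which carries the TGFβ signal to collagen promoters, fell with cytokines by 1.08 ± 0.13 in control (adjusted p = 6.3e-05) and by 0.95 ± 0.13 in *Adam17*-KD cells (adjusted p = 0.000202), from 38.6 to 43.4 CPM down to 16.8 to 21.3 CPM in control libraries. The ligand *Tgfb3* fell by 0.59 and 0.96 (adjusted p = 0.0244 and 0.000528), and the former call ended without any 1 of 7 libraries (adjusted p up to 0.111). *Tgfbr2* fell by 0.73 in *Adam17*-KD cells (adjusted p = 0.00125) and was not called in control cells, and the difference between its responses was not called (-0.62 ± 0.18, adjusted p = 0.999989). In the averaged comparison *Smad3* (0.48 ± 0.09, adjusted p = 0.0200) and *Tgfbr2* (0.41 ± 0.09, adjusted p = 0.0377) were called higher. *Smad3* lost that call without any 1 of 5 libraries (adjusted p up to 0.0724) and *Tgfbr2* without any 1 of 9 (adjusted p up to 0.135).

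The mesenchymal marker *Pdgfra* was called higher in *Adam17*-KD cells in the averaged comparison, and its levels were lower with cytokines. *Pdgfra* was at 14.7 to 18.97 CPM in unstimulated control and 26.96 to 32.5 CPM in unstimulated *Adam17*-KD cells, and at 7.43 to 12.1 and 12.5 to 16.8 CPM with cytokines (averaged log2 fold change 0.64 ± 0.13, adjusted p = 0.0372, lost without any 1 of 8 libraries with adjusted p up to 0.125). It was the only 1 of the 12 fibroblast and mesenchymal markers called in the averaged comparison. The summed level of that list was 3150 to 3880 CPM in unstimulated control, 3080 to 3790 CPM in unstimulated *Adam17*-KD, 2700 to 4100 CPM in stimulated control and 3190 to 3910 CPM in stimulated *Adam17*-KD libraries, and the ranges overlapped. Most of that sum was *Vim*, so it says little about the other markers. Whether *Pdgfra* or the other markers have a part in the differences between collagen chains was not tested.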

How the data were processed

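RNA was isolated from MC38CEA cells, and poly(A)+ RNA was sequenced with libraries from an Ion Total RNA-Seq Kit, with mm10 as the build per the labels. The deposited table holds whole-number counts per gene that the authors did not normalise. The aligner, counter, annotation, strand setting and handling of multi-mapping reads are not given in the sources used here. Reads shared between a chain and a gene that overlaps it therefore cannot be told apart. The authors' own comparisons of control with *Adam17*-KD cells (log2 fold changes, p-values) were not used. A line without a gene name and 2 genes whose names had become dates (0.00808% of counts) were left out.

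Genes were kept by filterByExpr (minimum count 10), scaled by TMM and fitted with edgeR 4.0.16 (R 4.3.3) as 4 group means over 12 libraries (8 residual degrees of freedom). Quasi-likelihood F-tests were adjusted by Benjamini-Hochberg over 14673 genes and called at an adjusted p under 0.05. All adjusted p come from this test unless DESeq2 1.42.0 is named. The SE is the log2 fold change over the square root of F. The alternatives were a replicate block, RLE scaling, no filter, a mean of at least 50 counts, DESeq2, leaving out each library, and coding in place of exon length. The fit was tested on simulated data. Gene positions and lengths are from GENCODE vM21 (GRCm38), which matched all 44 chains by symbol. Of the motifs searched in promoters, 1 is not reported here.

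Members, lists and markers were chosen with earlier results of these data known. Values in each library are given for chains called in any comparison and tested chains of the same type. Of each list, called members are named, otherwise those with the smallest adjusted p. Replicates with the same number deviated together from their group means for unstimulated *Adam17*-KD against control cells (correlations 0.203, 0.254 and 0.409) and for the cytokine response of control cells (0.115, 0.406 and 0.443), and not for the other comparisons. The main tests used group means only and left this pairing out of every SE and adjusted p. The replicate block, fitted over all 4 groups at once, was an alternative.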

Additional observations from a re-analysis of the deposited data

How the results depend on the processing

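The replicate block changed no count of called chains in the comparisons whose replicates deviated together (4 chains higher in unstimulated *Adam17*-KD cells, 3 higher and 1 lower in the cytokine response of control cells). In the averaged comparison it gave 7 chains in place of 5, with *Col3a1* (adjusted p = 0.0264) and *Col16a1* (adjusted p = 0.0181) added. Of unstimulated *Adam17*-KD against control cells 7 chains were higher with no filter, and 0 to 7 when 1 library was left out. With cytokines 4 were higher with no filter, 2 with DESeq2, and 0 to 1 when 1 library was left out. In the average 8 were higher both with no filter and with DESeq2. These numbers of chains count edgeR or DESeq2 calls at an adjusted p under 0.05, and the cause of the changes was not tested. Those with the block, with a library left out or with no filter in the average are given without the calls among all genes. They are not read as a result about collagen genes. Of the recomputed counts of called chains, 190 stayed within 1.5 times the main value and 14 did not. The 190 include counts that were 0 in both settings, such as chains lower in *Adam17*-KD cells, and these do not show that calls were steady. Over all genes with any count, and in both directions together, the calls without a filter on low counts were 223 for unstimulated *Adam17*-KD against control cells and 98 with cytokines.

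Signs turned for 4 uncalled values close to 0 when 1 library was left out. The log2 difference of *Col6a3* in unstimulated cells ran from -0.0334 to 0.137, below 0 without unstimulated control replicate 3 or without replicate 1 of unstimulated *Adam17*-KD cells. That of *Col4a1* ran from -0.0809 to 0.0124, above 0 without replicate 2 of control or replicate 2 or 3 of *Adam17*-KD cells, all unstimulated. The average of *Col11a2* ran from -0.0205 (without stimulated *Adam17*-KD replicate 2) to 0.270. That of *Col5a1* ran from -0.0429 (without stimulated control replicate 2) to 0.0831, and it was also below 0 without replicate 1 of either *Adam17*-KD group. The medians of all genes under TMM and RLE scaling were furthest apart in unstimulated cells (-0.01 and 0.02). Depth limits the 20 chains with at most 9 counts and *Col24a1* without cytokines.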
